A study of Bos taurus with 9 samples.

Results

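In cultured bovine adrenal chromaffin cells, 97 of 24016 probesets were raised by TNF-alpha (TNF) while staying close to their untreated level with the neuropeptide PACAP. A probeset is a group of short probes on the array that report together on 1 transcript sequence. The 97 members were chosen on the deposited log2 values by 3 conditions. The mean of the TNF arrays exceeded the mean of the untreated arrays by at least 1 (2-fold), each of the 3 same-repeat differences between a TNF and an untreated array was at least 0.5, and the mean PACAP change lay above -0.4 and under 0.5. The values described below are therefore, unless stated otherwise, the values that chose the members. They are given as a description and carry no test.

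Chromaffin cells, which secrete catecholamines, make up most of the adrenal medulla. The question of the study was which of their genes respond to PACAP and which to TNF. RNA came from primary cultures of dissociated bovine adrenal medulla, in which chromaffin cells had been purified by differential plating. The medium of the treated wells held fetal calf serum and cytosine beta-D-arabinofuranoside, and for the untreated wells the culture conditions are not described in the labels. There were 3 arrays of untreated cells, 3 of cells treated with 10 nM TNF-alpha for 6 h and 3 of cells treated with 100 nM PACAP-38 for 6 h. Age, sex and number of the animals are not given. The submitters describe the arrays as technical repeats, so the spread between them may be technical and need not contain the spread between animals or cultures.

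TNF is an inflammatory cytokine that binds receptors of the TNF receptor superfamily and, through adaptor proteins and the IkappaB kinase complex, frees the transcription factor NF-kappaB to enter the nucleus. Its known targets in many cell types include chemokines, adhesion molecules, survival factors and the inhibitors that switch NF-kappaB off again. PACAP is a transmitter of the splanchnic nerve at the adrenal medulla. It acts on a G protein-coupled receptor that raises cyclic AMP and calcium, and it is known for driving catecholamine synthesis, secretion and neuropeptide genes in chromaffin cells. Which members belong to these target groups was not analysed here, because the values are listed by probeset ID alone and 0 of these IDs could be matched to a gene of the RefSeq table used. For the same reason the labelled cell type was not checked against chromaffin, cortical, endothelial, fibroblast, blood or immune markers, and in bulk RNA a change in the share of such cells and a change in RNA per cell cannot be told apart. Members are called below by their rank, with rank 1 for the largest mean TNF change, and the IDs of the first 2 are given.

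Array medians lay between 6.65 and 6.72 (log2). The deposited values came from RMA, which normalizes arrays to each other, so close medians are no check of the arrays. Repeat 3 stood apart from repeats 1 and 2 in all groups. In the untreated arrays the members differed between repeats 1 and 2 by a median of 0.08 and between repeat 3 and the mean of the other two by a median of 0.35. The mean difference between 3' and 5' probesets of 9 spiked-in control pairs was 1.26 on TNF repeat 3 and 0.78 to 0.97 on the other 8 arrays. For 6 bovine control genes it was 0.65 on TNF repeat 3 and 0.28 to 0.51 on the others. The part that these control values have in the TNF changes of repeat 3 was not tested.

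The largest rise was that of Bt.552.1.S1_at (rank 1). Its log2 levels in repeats 1, 2 and 3 were 5.63, 5.50 and 5.64 in untreated cells, 9.92, 9.93 and 8.76 with TNF, and 5.65, 5.51 and 5.83 with PACAP. All TNF arrays were above all other arrays, with repeat 3 the lowest of them, and the PACAP arrays overlapped the untreated ones. The means were 5.59 ± 0.08 (SD, n = 3), 9.54 ± 0.67 and 5.66 ± 0.16, a TNF change of 3.94 or 15.4-fold and a PACAP change of 0.07.

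Rank 2, Bt.2408.1.S1_at, started higher. Its untreated levels were 7.41, 7.37 and 8.15, its TNF levels 11.82, 11.77 and 10.51, and its PACAP levels 7.17, 7.35 and 8.33. Repeat 3 was the highest array without TNF and the lowest with it, so the change of 4.42 in repeat 1 and 4.40 in repeat 2 was 2.36 in repeat 3. The mean change was 3.73 with TNF (13.2-fold) and -0.03 with PACAP. Rank 3 belongs to the same sequence cluster, as read from the shared leading number of the IDs. It rose from 8.72, 8.73 and 9.37 to 12.67, 12.67 and 11.94, and with PACAP stood at 8.49, 8.71 and 9.61. Its mean TNF level of 12.43 ± 0.42 was the highest of any member.

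Ranks 4, 5 and 6 completed the members that rose at least 8-fold. Rank 4 went from 5.07, 5.39 and 5.35 in untreated cells to 9.08, 9.09 and 7.66 with TNF, and was at 5.47, 5.18 and 5.46 with PACAP. Rank 5 went from 7.09, 6.95 and 6.60 to 10.33, 10.38 and 9.29, and was at 6.89, 6.78 and 7.05 with PACAP. In both, the TNF arrays did not overlap the others. Rank 6 was among the dimmest probesets without TNF, at 3.196, 3.227 and 3.411, and reached 7.18, 7.23 and 4.69. Its PACAP levels were 3.23, 3.25 and 3.39. The rise of rank 6 in repeat 3 was 1.28, against 3.984 and 4.004 in repeats 1 and 2, and its mean of 6.37 ± 1.45 with TNF had the widest spread among the 12 leading members.

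**Figure D1:**
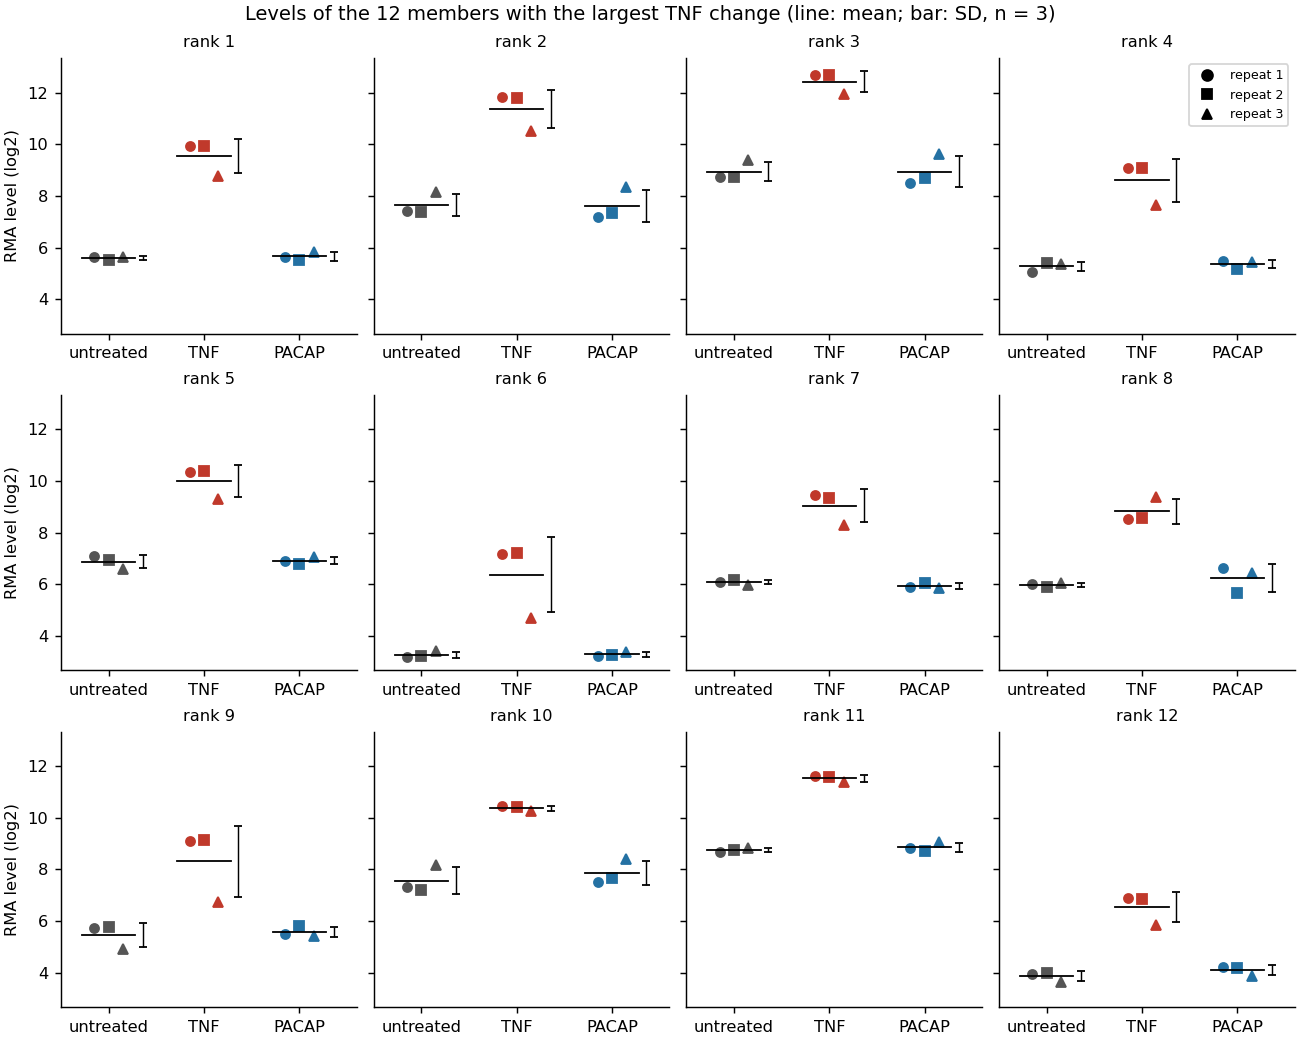
RMA level (log2) of the 12 members with the largest TNF change on each of the 9 arrays, by group; symbols mark the repeats, lines the means and bars the SD (n = 3). In all 12 panels the 3 TNF arrays lie above the untreated and PACAP arrays, and in 11 of them the TNF change is smallest in repeat 3.

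Rank 8 differed from the other leading members in its repeats. It rose by 2.54, 2.66 and 3.36, from 5.99, 5.90 and 6.04 to 8.54, 8.56 and 9.39, so that repeat 3 gave the largest change. Its PACAP levels of 6.65, 5.65 and 6.46 were spread more widely than its untreated levels. Rank 11 was bright and even across repeats, with levels of 8.69, 8.75 and 8.82 in untreated cells, 11.62, 11.57 and 11.36 with TNF and 8.82, 8.71 and 9.04 with PACAP. Its TNF change was 2.77, or 6.81-fold.

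Most members changed less than these. The median TNF change over the 97 members was 1.56 (2.96-fold), with quartiles of 1.18 and 1.97. There were 21 members with at least a 4-fold rise, and 37 whose rise was under 2.5-fold. Over all 24016 probesets the median TNF change was -0.01, with quartiles of -0.11 and 0.08. The full TNF part of the rule was met by 158 probesets (0.658%).

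Before treatment most members lay in the middle of the brightness range. Their untreated means ran from 2.85 to 10.08 with a median of 6.24. Those of all probesets ran from 2.55 to 14.14 with a median of 6.71. Of the 97 members, 58 (59.8%) lay below that median. Of the 97, 12 lay below the lower quartile of all probesets and 10 above the upper one. With TNF the median level of the members was 8.04, against 6.67 for all probesets, and with PACAP it was 6.28. The 3 dimmest members were ranks 51, 86 and 6. Rank 51 went from 2.85, 2.81 and 2.89 to 5.05, 4.18 and 3.73 with TNF and stood at 2.78, 2.92 and 2.99 with PACAP. Rank 86 went from 3.196, 3.078 and 2.988 to 4.50, 4.28 and 3.79, with PACAP levels of 3.32, 3.32 and 3.11. Without detection calls, the folds of members this dim are approximate.

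The 3 brightest members were ranks 66, 67 and 89. Rank 66 went from 10.23, 10.25 and 9.76 to 11.45, 11.54 and 10.90 with TNF and was at 10.44, 10.35 and 9.69 with PACAP. Rank 67 went from 9.91, 9.85 and 10.21 to 11.16, 11.23 and 11.21, with PACAP levels of 9.40, 9.44 and 9.96. All 3 PACAP arrays of rank 67 lay below their same-repeat untreated arrays, and its PACAP change of -0.39 was the lowest in the set. Rank 89 went from 9.76, 9.77 and 9.61 to 10.73, 10.77 and 10.90 with TNF and was at 9.57, 9.58 and 9.42 with PACAP.

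The size of the TNF rise differed between repeats. The median change over the members was 1.66 in repeat 1, 1.70 in repeat 2 and 1.24 in repeat 3. For 73 of the 97 members repeat 3 gave the smallest of the 3 changes, and for 17 it gave the largest. In 20 members repeat 3 fell short of the mean of the other two repeats by at least 1, among them 7 of the first 12. The highest shortfall was that of rank 6. In 1 member, rank 79, repeat 3 exceeded the other repeats by at least 1, with changes of 0.82, 0.71 and 1.89. Over all probesets the same difference between repeats had a median of 0.03, and over the members it had one of -0.47. A rise of at least 1 in each repeat was seen in 61 of the 97 members, while 30 were below 1 in repeat 3, 7 in repeat 1 and 3 in repeat 2.

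**Figure D2:**
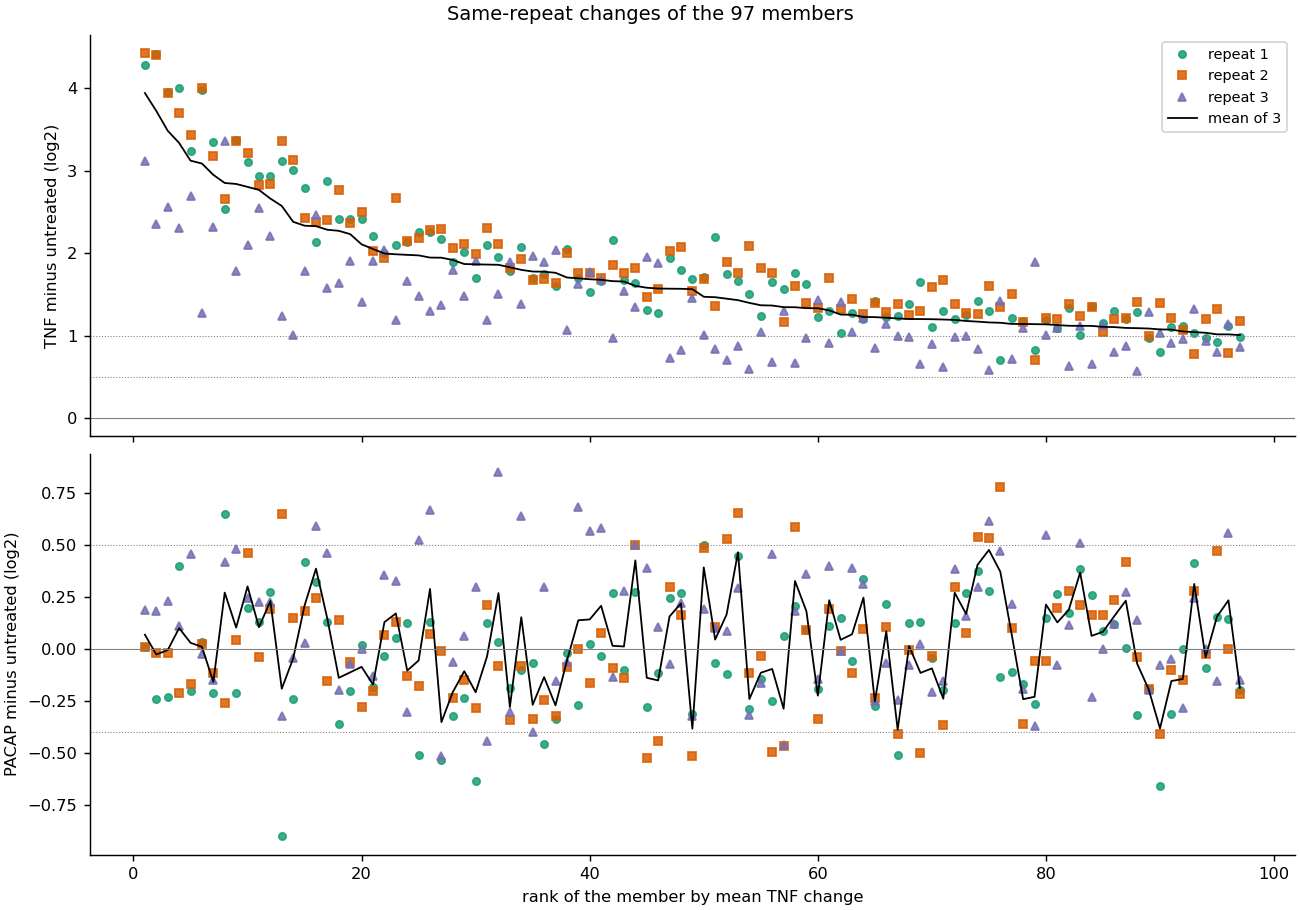
Same-repeat changes (log2) of the 97 members against untreated cells, with TNF (top) and PACAP (bottom), ordered by mean TNF change; symbols mark repeats, the line the mean of 3, and dotted lines the limits of the rule. TNF changes of repeat 3 lie mostly below those of repeats 1 and 2 (median 1.24 against 1.66 and 1.70), while PACAP changes scatter around 0.

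The TNF arrays lay above all untreated arrays in 89 members, where 6.52% of all probesets had this arrangement. They lay above all untreated and all PACAP arrays in 86 members, against 2.91% of all probesets; the rule used these arrays, so nothing is read from either count. In the 8 members with overlap, repeat 3 was either the lowest TNF array or the highest untreated array. Of these 8, 7 had an untreated repeat 3 array at least 1 away from the mean of the other two.

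Some members had levels in repeat 3 far from those of repeats 1 and 2. In 16 of the 97 (16.5%) untreated repeat 3 lay at least 1 from the mean of repeats 1 and 2, against 1.89% of all probesets. It was higher in 9 and lower in 7. TNF repeat 3 lay at least 1 away in 29 members (29.9%, against 1.97% of all probesets). PACAP repeat 3 did so in 12 (12.4%, against 1.51%). The 16 were picked on the untreated arrays alone, and some of them were closer than 1 with TNF or PACAP. Among the 16, PACAP repeat 3 was displaced in the same direction, by any distance, in all 16. TNF repeat 3 was so in 15, rank 13 being the exception. The PACAP limits favour a shared direction, as does the same-repeat TNF limit where untreated repeat 3 was higher. The share over all probesets is not given here, so nothing is read from these counts. Rank 23 had levels of 3.58, 3.37 and 6.47 in untreated cells, 5.69, 6.05 and 7.66 with TNF and 3.64, 3.51 and 6.80 with PACAP. The untreated level of repeat 3 was thus above the TNF levels of repeats 1 and 2, although TNF exceeded untreated cells within every repeat. Rank 96 showed the opposite displacement, at 6.65, 6.86 and 4.11 in untreated cells, 7.77, 7.65 and 5.25 with TNF and 6.80, 6.86 and 4.67 with PACAP. Ranks 23, 26 and 32 carry the same cluster number, as do ranks 30 and 36 and ranks 39 and 41. Within each of these clusters the members are not separate examples, so the counts above exceed the number of clusters. What differed in repeat 3 is not given in the labels, and its part in these levels was not tested.

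**Figure D3:**
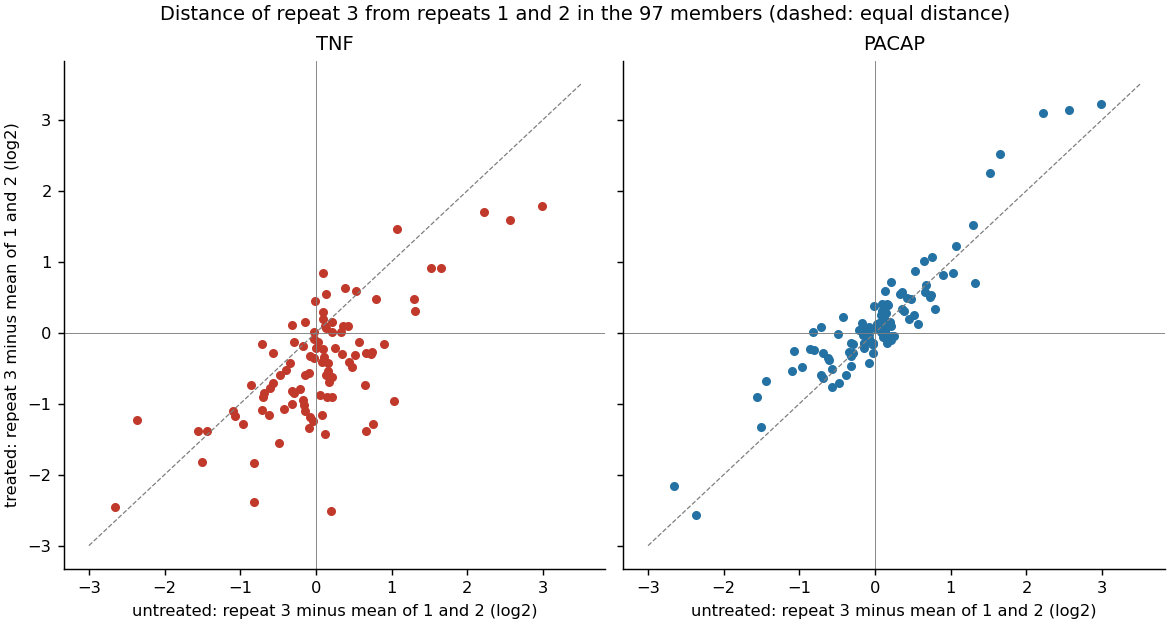
For each of the 97 members, the distance of repeat 3 from the mean of repeats 1 and 2 (log2) in untreated cells (horizontal) against the same distance in TNF- or PACAP-treated cells (vertical); the dashed line marks equal distance. The 16 members at least 1 from 0 on the horizontal axis lie on the same side of 0 with PACAP in every case and with TNF in 15. The limits of the rule partly favour this, so nothing is read from it.

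With group means alone, limma called 75 of the 97 members higher with TNF at an adjusted p under 0.05, where 1.33% of all probesets were called higher. Of the 22 members that were not called, 14 were among the 16 with a displaced untreated repeat 3, and the median untreated SD of the 22 was 0.72, against 0.17 for the called members. With the repeat number as a block, limma called 97 of 97, against 2.81% of all probesets. The rule had used this contrast, so neither count is support for the rise.

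With PACAP the members stayed within the limits that chose them, and they did so on either side of 0. The PACAP change was above 0 in 54 members and below 0 in 43, with a median of 0.04, quartiles of -0.14 and 0.19 and a range of -0.39 to 0.48. In 57 members it was within 0.2 of 0. Over all probesets the PACAP change had a median of 0.002 and quartiles of -0.16 and 0.12. The rule set a limit for the mean only. Single repeats reached 0.5 or more in 20 members, in 13 of them in repeat 3, and -0.5 or less in 9. The 3 PACAP changes had 1 sign in 49 members. The limits of the rule bear on all these counts and are not symmetric about 0. The matching shares of all probesets are not given here, so nothing is read from the counts.

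The widest disagreement between repeats was that of rank 13, whose PACAP changes were -0.90, 0.65 and -0.32. Its PACAP mean therefore lay inside the limits although those of repeats 1 and 2 lay outside them on opposite sides. In 81 members the PACAP arrays overlapped the untreated arrays. In 9 they were all above them, where 14.2% of all probesets had that arrangement, and in 7 all below, against 16.8%. limma called 2 members as changed with PACAP, 1 in each direction, where 14.4% of all probesets were called, and 7 with the repeat block, against 21.9%. The limits of the rule favour such low counts, so nothing is read from them. The members also varied more between arrays than all probesets, with a median SD of 0.21 against 0.10 in untreated cells and 0.22 against 0.12 with PACAP. The part of each in the counts was not tested. The 2 called members were rank 49, at 7.39, 7.58 and 7.51 in untreated cells and 7.08, 7.07 and 7.19 with PACAP, and rank 83, at 6.27, 6.24 and 6.08 in untreated cells and 6.65, 6.45 and 6.59 with PACAP. Their PACAP changes of -0.38 and 0.37 were smaller than their TNF changes of 1.56 and 1.12.

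Compared within repeats, TNF was above PACAP in all 3 repeats for 96 of the 97 members, and by at least 1 in all 3 for 53. The mean difference had a median of 1.54 and a range of 0.69 to 3.87. The exception was rank 75, with TNF levels of 6.41, 6.53 and 5.77 and PACAP levels of 5.39, 5.45 and 5.81. Over all probesets TNF was above PACAP in 46.7%, 45.4% and 51.8% in repeats 1, 2 and 3, and the share for all 3 repeats together is not given here. The doses differed, at 10 nM TNF and 100 nM PACAP. Both sets of arrays entered the rule, so nothing is read from the counts for the members.

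The limits on the PACAP change divided a continuous range. Of the 158 probesets that met the TNF part of the rule, 97 were members, 31 had a PACAP change of -0.4 or less and 30 one of 0.5 or more. The median TNF change was 1.59 in those lowered by PACAP, 1.56 in the members and 1.31 in those raised by PACAP. The members just inside the lower limit had PACAP changes of -0.39, -0.38 and -0.38, and the probesets just outside it had -0.41, -0.42 and -0.43. Just inside the upper limit the changes were 0.48, 0.47 and 0.43, and just outside it 0.51, 0.59 and 0.61. One of the latter was a strong responder, which rose from 5.84, 5.94 and 6.79 to 9.54, 9.52 and 9.84 with TNF (a change of 3.44) and stood at 6.13, 6.52 and 7.68 with PACAP. It would have been rank 4 but for its PACAP change of 0.59.

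The lower end of the TNF changes was likewise continuous. The members just inside the limit had TNF changes of 1.01, 1.02 and 1.02, and the probesets that missed only this condition by least had 0.99, 0.98 and 0.98. Another 7 probesets missed only the condition on single repeats. The nearest of them had smallest repeat changes of 0.47, 0.46 and 0.35, all in repeat 3, where the nearest members had 0.58, 0.58 and 0.59, also in repeat 3. For comparison, the mirrored rule, with PACAP and TNF exchanged, was met by 219 probesets.

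**Figure D4:**
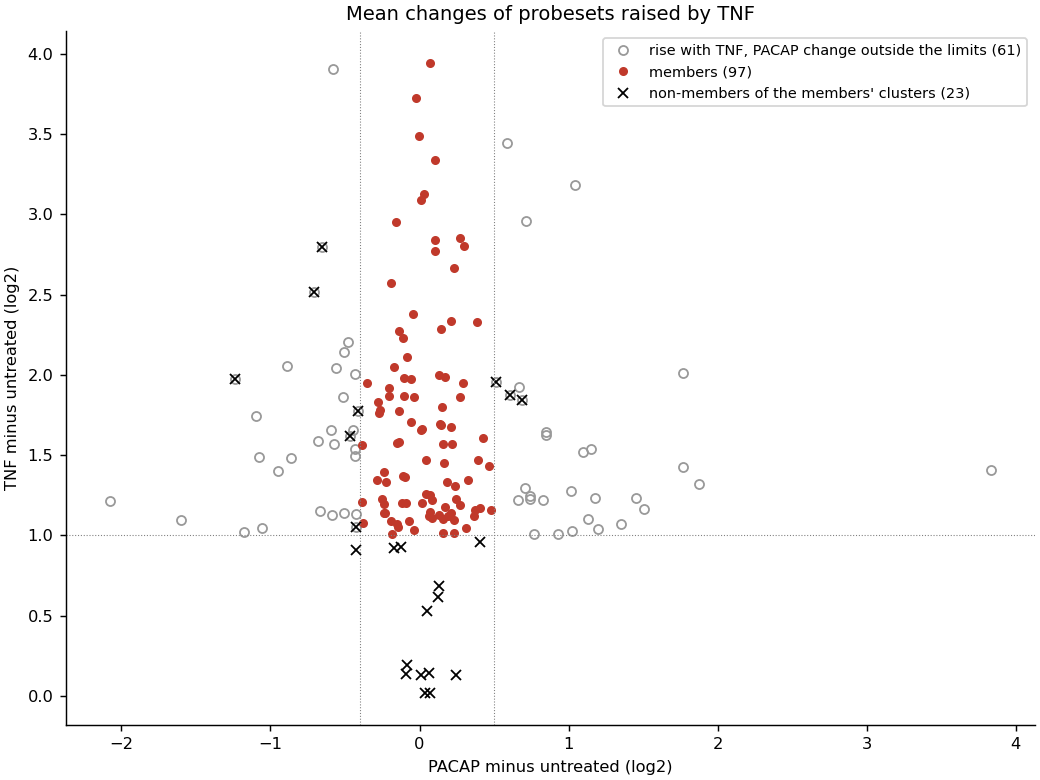
Mean TNF change (vertical) against mean PACAP change (horizontal), both log2 against untreated cells, for the 158 probesets that met the TNF part of the rule and for the 23 non-member probesets of the members' sequence clusters; dotted lines mark the limits. The 97 members lie between the PACAP limits, with 31 other probesets to their left and 30 to their right.

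By the leading number of their IDs the 97 probesets belonged to 82 sequence clusters, of which 70 held 1 member, 9 held 2 and 3 held 3. The probesets of a cluster were read on the same arrays. Whether they share probes was not checked, so they may not be separate measurements. In the 12 clusters with several members the TNF changes lay within 0.01 to 0.63 of each other, with a median gap of 0.11. The untreated levels were 0.19 to 3.76 apart, with a median gap of 1.65. Only probesets that had passed the TNF limits are compared, which favours small TNF gaps, so nothing is read from the contrast. The widest gap in level was between ranks 21 and 35. Rank 35 stood at 9.43 and rank 21 at 5.67 on average in untreated cells, and they rose by 1.78 and 2.05. Ranks 46 and 49 had levels of 5.82 and 7.50 and rose by 1.57 and 1.56.

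The array held 23 further probesets of the members' clusters that were not members, from 19 clusters. Of these, 9 (39.1%) met the TNF part of the rule, with changes of 1.05 to 2.79. Over all probesets, the members included, 0.658% met it. The clusters were picked because another of their probesets met the rule on the same arrays, so the higher share is a description only. They had missed membership on the PACAP limits, 6 at the lower and 3 at the upper one. The strongest of them shares a cluster with rank 20 and rose from 7.59, 7.55 and 7.90 to 10.45, 10.54 and 10.43 with TNF. With PACAP it stood at 6.92, 6.76 and 7.40, below its untreated level in each repeat, a change of -0.65. Rank 20 itself had untreated levels of 5.97, 6.10 and 6.18, TNF levels of 8.40, 8.60 and 7.58 and PACAP levels of 5.99, 5.82 and 6.18, a PACAP change of -0.09. For this cluster the dimmer probeset was a member and the brighter one was also lower with PACAP.

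The cluster of rank 19 showed the same arrangement. Rank 19 was at 5.50, 5.51 and 5.42 in untreated cells and at 5.30, 5.45 and 5.35 with PACAP, while its non-member partner was at 8.39, 8.24 and 8.53 in untreated cells and at 7.63, 7.38 and 8.02 with PACAP. Both were higher with TNF, by 2.23 and 2.51. In the cluster of rank 61, 2 non-members rose by 1.96 and 1.88 with TNF and had PACAP changes of 0.51 and 0.61, against 1.31 and 0.23 for rank 61. Of the 6 partners beyond the lower PACAP limit, 5 were brighter in untreated cells than the leading member of their cluster. The exception had the largest PACAP change of the 6, at -1.24, and an untreated mean of 5.30, against 5.53 for its member partner, rank 71.

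The other 14 non-members of these clusters did not meet the TNF part. In 7 the TNF change was 0.53 to 0.96, and in the other 7 it was 0.02 to 0.19. The latter had untreated means between 3.32 and 6.04, and 5 of the 7 carried the orientation letter opposite to that of their member partners, as did 3 of the 7 with changes of 0.53 to 0.96 and 5 of the 9 that met the TNF part. Whether they report on the same transcripts as the members was not tested. The ID's orientation letter was S in 69 members (71.1%) and A in 28, and S in 60.7% of all probesets. Probesets designed for a single sequence made up 86 of the 97 members (88.7%), against 93.3% of all probesets. Another 8 (8.25%, against 5.33%) were designed for several transcripts of a gene. The other 3 carried suffixes that mark possible cross-hybridisation with other sequences, among them rank 3. The suffix was s_at in 2 members (2.06%, against 0.979%) and x_at in 1 (1.03%, against 0.379%).

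The values that the rule did not use can be seen only by leaving a repeat out of the choice, although the limits of the rule were set with all repeats in view. When members were chosen on repeats 2 and 3 alone, 93 probesets met the rule, and in repeat 1 their TNF change was at least 0.5 in 92 of them, against 3.75% of all probesets. The median change in that repeat was 1.70, against -0.01 over all probesets. When repeat 2 was left out, 96 probesets met the rule and 96 had a TNF change of at least 0.5 in repeat 2 (4.28% of all probesets), with a median of 1.73. Repeats 1 and 2 resembled each other closely, so each of these checks leaves out an array that has a near match in the choice.

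Leaving out repeat 3 gave the harder check. The rule on repeats 1 and 2 chose 132 probesets, 87 of them among the 97. In repeat 3 the TNF change was above 0 in 130 of the 132, at least 0.5 in 106 (80.3%) and at least 1 in 63 (47.7%). Over all probesets these shares were 49.9%, 3.02% and 0.508%. The median change in repeat 3 was 0.98, and the lowest was -0.86. Of the 45 chosen probesets outside the 97, 26 had a repeat 3 change under 0.5.

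The PACAP changes of the left-out repeats were less uniform. In repeat 1, 82 of the 93 chosen probesets (88.2%) had a PACAP change between the limits, where 80.2% of all probesets did. In repeat 2 it was 74 of 96 (77.1%), against 79.9% of all probesets, and in repeat 3 it was 103 of 132 (78.0%), against 88.4%. Their medians were -0.03, -0.04 and 0.07. The share within the PACAP limits was thus above that of all probesets in repeat 1 and below it in repeats 2 and 3. Of the 132, 19 were at or above the upper limit in repeat 3 and 10 at or below the lower one. TNF exceeded PACAP in the left-out repeat in 93 of 93, 96 of 96 and 126 of 132 probesets, against 46.7%, 45.4% and 51.8% of all probesets. TNF and PACAP changes of a repeat share its untreated array.

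**Figure D5:**
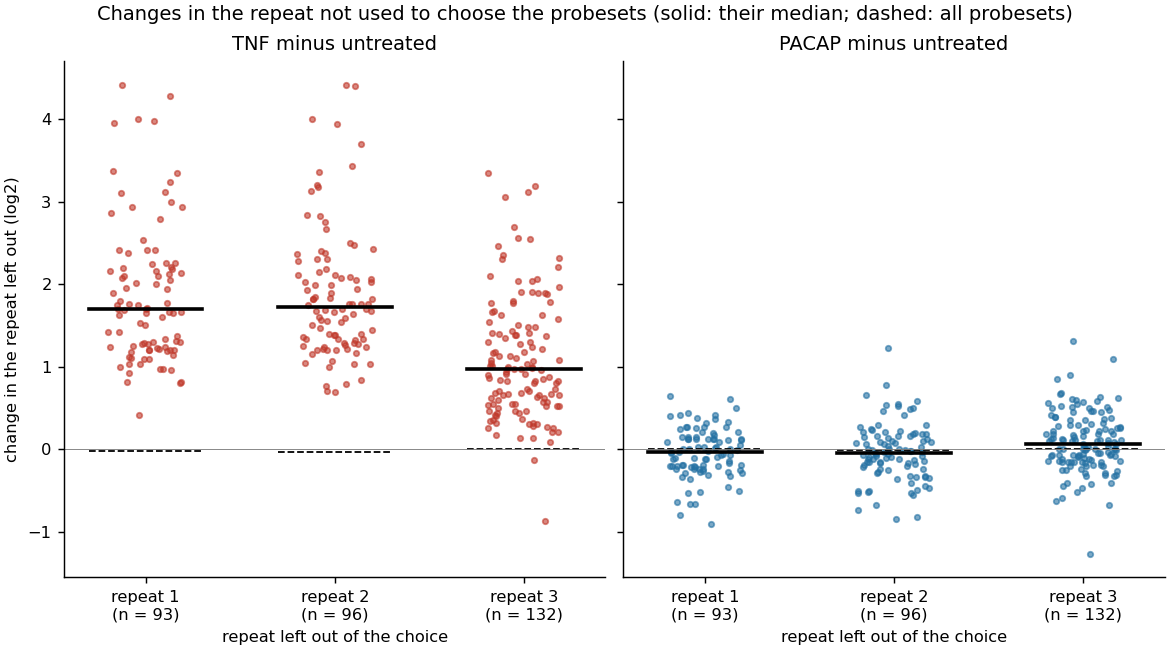
Changes (log2) in the repeat that was left out when the probesets were chosen, for TNF (left) and PACAP (right); points are probesets, solid lines their medians and dashed lines the medians of all probesets. TNF medians are 1.70, 1.73 and 0.98 in repeats 1, 2 and 3, while the PACAP medians stay between -0.04 and 0.07.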

How the data were processed

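Values for 9 Affymetrix bovine arrays, 3 per group, were used as deposited by the authors, as log2 expression per probeset. The tools were Affymetrix Expression Console and RMA, per the submitters' processing notes; their versions were not given in the sources. Each labelling reaction took 5 ug of RNA, per the labels. Groups and repeat numbers came from sample titles. Of 24128 probesets, 112 controls were left out. limma 3.58.1 in R 4.3.3 fitted group means to all 9 arrays (two-sided, Benjamini-Hochberg over 24016 probesets, threshold 0.05). The fit was run on simulated arrays with independent noise. These held no deviation shared by repeat, so that check does not cover this feature of the real arrays. Same-numbered arrays of different groups deviated together (correlations 0.23 to 0.65, all above 0.1), and the repeat number was used as a block in a further fit. Correlations between arrays of different numbers are not given here. Repeats 1 and 2 resembled each other closely, so these correlations cannot show that arrays 1 and 2 pair by number. The fit of group means took the 9 arrays as independent, although the submitters describe them as technical repeats. Its adjusted p-values concern the spread between arrays, which need not contain that between animals or cultures. The number of arrays limits the precision. The members and lists were chosen with earlier results of these data known. The rule for naming was the 2 largest TNF changes by ID and the others by rank, and, with values, the 3 brightest, the 3 dimmest and those nearest each limit; the remaining ranks were picked with their values known. The gene lists, cell type markers and promoter motifs planned were not tested, because 0 IDs matched a gene name.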

Additional observations from a re-analysis of the deposited data

How the results depend on the processing

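The number of members stayed within 1.5 times 97 under the alternatives run, which were other normalizations, other limits, a filter on dim probesets, each repeat left out and a limma call in addition. It was 101 after a further quantile normalization (96 shared), 104 after median centring (95 shared), 130 and 70 with TNF limits of 0.8 and 1.2, and 93 to 132 without each repeat. The median TNF change in a left-out repeat moved by less than its spread after quantile normalization. Calls over all probesets moved more. TNF rises, 320 in all, became 674 with the replicate block and 183 with 6 arrays, and ranged from 107 to 425 with each array left out, being 116 and 108 without untreated repeats 1 and 2, 124 and 107 without TNF repeats 1 and 2 and 212 without PACAP repeat 2. PACAP calls, 3470 in all, became 5259 with the replicate block and ranged from 1688 to 4110 with each array left out, being 1734 and 1688 without untreated repeats 1 and 2 and 2238 and 2046 without PACAP repeats 1 and 2. Without untreated, TNF or PACAP repeat 3 the TNF rises were 411, 425 and 309. The PACAP calls were then 3895, 4110 and 3454. The cause of these differences was not tested. The gene lists and promoter motifs gave no values under any alternative. No detection calls were used, so the signal of dim members over background is unknown.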
